A study of Mus musculus with 95 samples.

Results

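The genes described here encode hormones of the pituitary gland, read in libraries made from cerebral cortex. They were chosen by name, as Prl (prolactin), Gh (growth hormone), Pomc (pro-opiomelanocortin), Cga (the alpha subunit shared by the glycoprotein hormones), Lhb (the beta subunit of luteinizing hormone) and Tshb (the beta subunit of thyroid-stimulating hormone). Of these 6 genes, 5 matched a row by symbol among the 39179 genes of the table, and Lhb is not analysed here. The mice were C57BL/6 and carried 1 knock-in allele with 20, 50, 92 or 140 CAG repeats in the gene of Huntington's disease, here called the Q20, Q50, Q92 and Q140 lines, or were wild type. Libraries were made from mice of 6 and of 10 months and of both sexes, with 4 libraries for each combination of line, age and sex except for the 3 of Q140 males at 10 months. Of the wild types, 8 libraries per age came from mice caged with Q20 mice and 8 from mice caged with Q50 mice. Q92 and Q140 mice were caged with their own line, and wild types caged with them were not analysed here. The labels do not say that each library is a separate animal, so p-values measure only the spread between libraries.

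Summed counts per library were 30.3 M to 41.1 M, with a median of 34.1 M. The tissue label was matched by its markers, since each of the 9 cortical neuron markers had at least 168 counts in every library, the lowest being for Emx1, a transcription factor of the dorsal forebrain. The counts are estimated counts per gene, and CPM is that count scaled to the library's total after adjustment by edgeR's TMM normalization factor. FPKM, which is also scaled to gene length, is used where levels of different genes are set side by side. A gene was called at a Benjamini-Hochberg adjusted p under 0.05 in edgeR's quasi-likelihood test over all genes tested.

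In the anterior pituitary, prolactin is made by lactotrophs, growth hormone by somatotrophs, and thyroid-stimulating hormone by thyrotrophs. POU1F1, a homeodomain factor, activates the genes of these hormones, and in rodents estrogen raises Prl transcription. Pomc is the precursor of corticotropin, of melanocyte-stimulating hormones and of beta-endorphin, and is made in corticotrophs, in melanotrophs of the intermediate lobe and in neurons of the hypothalamic arcuate nucleus. Cerebral cortex is not known as a main site of synthesis of these hormones.

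The promoters of Prl, Pomc and Cga are shown because their transcripts were at times abundant together in these cortex libraries. Each runs from 250 bases before to 50 bases after the annotated start site in RefSeq (GRCm38.p6), a build that is not known to be that of the counts. Capitals mark matches, on either strand, to ATGNATA (a core bound by POU1F1), TATAAA (the TATA box), TGACGTCA (the cyclic AMP response element), CAGCTG or CACGTG (E-boxes), or AGGTCA (a core bound by nuclear receptors). The Prl promoter lies at chr13:27057320-27057619 on the plus strand, that of Pomc at chr12:3954695-3954994 on the plus strand, and that of Cga at chr4:34893529-34893828 on the plus strand.
Prl: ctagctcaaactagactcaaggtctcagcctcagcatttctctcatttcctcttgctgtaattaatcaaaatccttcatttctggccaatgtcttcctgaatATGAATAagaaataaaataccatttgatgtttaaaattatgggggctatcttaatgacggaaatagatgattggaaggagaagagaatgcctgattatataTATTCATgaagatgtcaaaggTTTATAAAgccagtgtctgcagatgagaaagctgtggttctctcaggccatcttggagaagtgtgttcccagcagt
Pomc: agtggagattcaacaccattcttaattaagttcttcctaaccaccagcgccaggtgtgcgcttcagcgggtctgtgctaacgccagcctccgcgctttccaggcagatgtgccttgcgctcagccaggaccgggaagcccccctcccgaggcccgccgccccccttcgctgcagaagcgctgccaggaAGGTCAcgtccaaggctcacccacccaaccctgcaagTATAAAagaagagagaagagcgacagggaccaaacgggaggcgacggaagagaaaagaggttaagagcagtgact
Cga: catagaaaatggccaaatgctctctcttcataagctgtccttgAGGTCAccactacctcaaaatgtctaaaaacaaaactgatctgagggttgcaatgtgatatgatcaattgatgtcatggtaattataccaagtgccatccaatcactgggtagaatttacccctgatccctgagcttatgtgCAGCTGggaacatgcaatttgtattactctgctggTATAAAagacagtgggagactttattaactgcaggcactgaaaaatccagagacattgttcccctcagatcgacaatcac
In the Prl promoter ATGNATA matched at -148 on the plus strand and at -47 on the minus strand, counted from the start site, while 8.74% of the 32544 different 300-base promoters in the table hold this motif. The promoters of Pomc, Cga and Tshb, searched in the same way, held no match to ATGNATA. No promoter of Gh was available to search. TATAAA matched at -24 in Prl, -25 in Pomc and -30 in Cga, against 13.6% of all promoters, and in Prl a reverse match overlaps it from -26. AGGTCA matched in Pomc at -62 and in Cga at -207, against 16.2% of all promoters. CAGCTG matched in Cga at -65, against 16.4% of all promoters. TGACGTCA, which 1.8% of all promoters hold, and CACGTG, which 7.17% hold, had no match in these 3 windows. The matches describe letters only and are not evidence of binding.

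Prl and Gh were absent or nearly so in most cortex libraries and abundant in a few. Prl ranged from 0 to 1996 counts with a median of 1, and 32 of 95 libraries had no Prl count. Gh ranged from 0 to 5226 counts with a median of 1, and 46 libraries had none. Libraries with 3 or more counts, the level listed here as detected, numbered 43 for Prl and 39 for Gh. On the log2 CPM scale the SD over the 95 libraries was 3.49 for Prl and 3.33 for Gh, which ranked 7 and 8 from the largest of 18007 genes. Both hormone genes thus varied between libraries more than nearly all other genes. The 10 libraries with most Prl held 91.0% of all Prl counts, and the 10 with most Gh held 93.4% of all Gh counts.

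Pomc differed from these in having a floor, with counts in all 95 libraries. Its counts ranged from 6 to 790 with a median of 20, and its 10 highest libraries held 59.4% of its counts. Cga was detected in 14 libraries, had no count in 62, and reached 241 counts. Tshb never exceeded 10 counts and had a median of 2, so that differences in Tshb were not detectable at this depth. Per length, the median level over libraries was 0.578 FPKM for Pomc, 0.104 FPKM for Tshb, 0.0358 FPKM for Prl, 0.0322 FPKM for Gh and 0 FPKM for Cga. The highest level in any library was 168 FPKM for Gh, 68.4 FPKM for Prl, 21.7 FPKM for Pomc, 9.7 FPKM for Cga and 0.458 FPKM for Tshb. The order of the genes at their peak was therefore not the order of their medians.

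**Figure D1:**
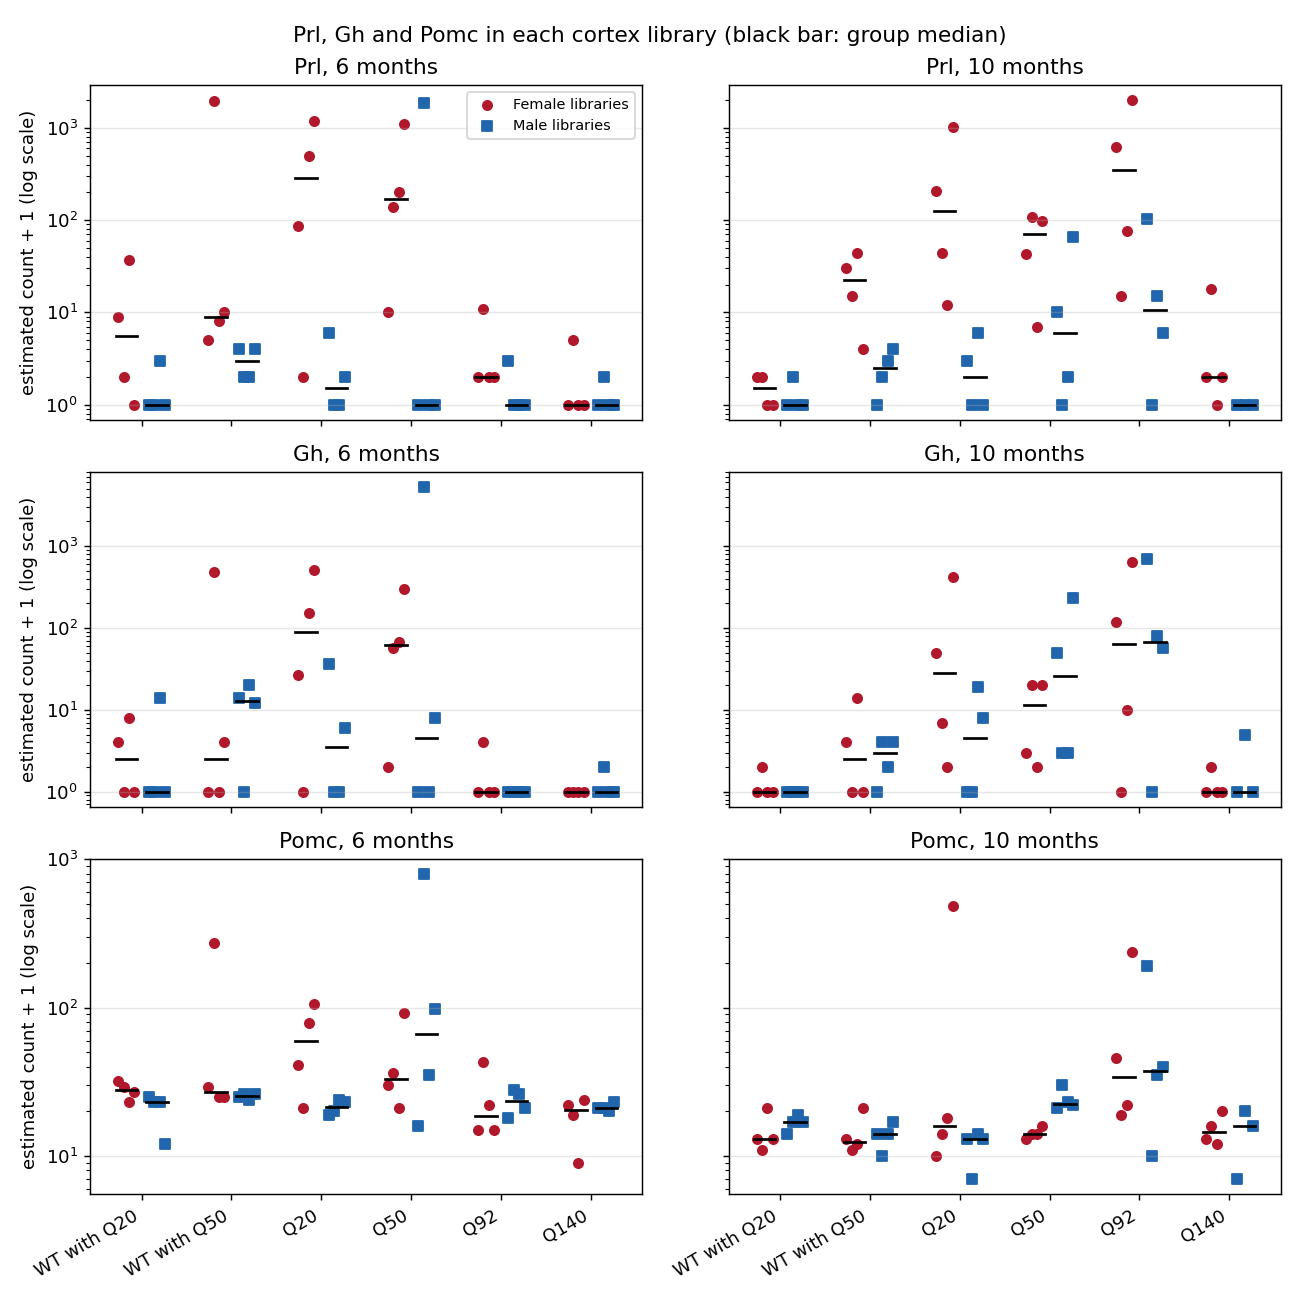
Estimated counts plus 1 (log axis) of Prl, Gh and Pomc in each library, by line and housing group, with females as red circles, males as blue squares and the median of each group of line, age and sex as a black bar. Prl and Gh reach from 0 to 1996 and 5226 counts, whereas Pomc has at least 6 counts everywhere.

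The library with most Gh was replicate 2 of the Q50 males at 6 months, with 5226 Gh counts, 1856 Prl counts, 790 Pomc counts, 241 Cga counts and 10 Tshb counts. The other 3 Q50 males of that age had 0 Prl counts each and 0, 0 and 7 Gh counts. That library alone held 55.8% of all Gh counts and 58.6% of all Cga counts of the series. It was also the highest library for 7 of the 18 other anterior and intermediate pituitary genes on the list searched. Among them were Fshb, the beta subunit of follicle-stimulating hormone, with 77 counts, Pou1f1 with 19, the gonadotropin-releasing hormone receptor gene Gnrhr with 12, the pituitary transcription factors Tbx19 with 9 and Pitx1 with 8, and the growth hormone-releasing hormone receptor gene Ghrhr with 4. Medians of Fshb, Gnrhr and Ghrhr over the 95 libraries were 0 counts. Other genes of that list with higher levels, such as Chgb, Pcsk1, Crhr1 and Drd2, are also expressed in forebrain neurons.

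High Prl, Gh, Pomc and Cga occurred in the same libraries. Replicate 4 of the Q92 females at 10 months held 1996 Prl, 631 Gh, 238 Pomc and 28 Cga counts. Replicate 2 of the females caged with Q50 mice at 6 months, which are wild type, held 1934 Prl, 483 Gh, 271 Pomc and 15 Cga counts. Replicate 4 of the Q20 females at 10 months held 1030 Prl, 423 Gh, 482 Pomc and 33 Cga counts. The high libraries thus included both wild-type and knock-in mice, both sexes and both ages.

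Across the 48 libraries of 6 months, log2 CPM of Prl and Gh correlated with Pearson's r of 0.88 and Spearman's rho of 0.77 (permutation adjusted p = 1.8e-05 and 4e-05, two-sided, over 20 pairs). At 10 months r was 0.78 and rho 0.72 over 47 libraries (permutation adjusted p = 1.8e-05 and 4e-05). Leaving out the 2 libraries farthest from the median of Prl gave r of 0.84 and 0.72. Within females r was 0.97 at 6 and 0.92 at 10 months, and within males 0.89 and 0.88. Every value within a sex was thus above the pooled value of its age. Gh and Cga had r of 0.85 and 0.82 at the 2 ages, and Prl and Pomc 0.72 and 0.57, with rho of 0.49 and 0.31 for the latter pair. Tshb followed Prl only loosely, with r of 0.38 (permutation adjusted p = 0.012) at 6 months and 0.1 (permutation adjusted p = 0.5) at 10 months.

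Among 18007 genes with at least 10 counts in 3 libraries, the 3 genes most like Prl over the 95 libraries were Gh (r = 0.84), Cga (r = 0.76) and Pomc (r = 0.6). The next were 5530601H04Rik, an RNA gene, and Aldh1a1, a retinaldehyde dehydrogenase, both with r of 0.47, and Kdm6a, Xist and Eif2s3x, X-linked genes with r of 0.46. For Gh the closest were Prl (r = 0.84), Cga (r = 0.82) and Pomc (r = 0.69), followed by 2700038G22Rik and Ttc32 at 0.4, Cyp4f15 at 0.39, Srgn at 0.34 and Elk3 at 0.33. For Pomc they were Cga (r = 0.76), Gh (r = 0.69) and Prl (r = 0.6), followed by Kank3 at 0.47, Apoe at 0.45, and Scarf2, Sssca1 and Lemd2 at 0.44. In each case the other 3 hormone genes stood first, with a gap to the next gene. These correlations are descriptions, since the libraries share line, age and sex.

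Pomc did not keep a fixed proportion to the other hormones. Among the 9 libraries with at least 500 counts of Prl and Gh together, Pomc counts equalled 6.12% of that sum in replicate 4 of the Q20 females at 6 months and 33.2% in replicate 4 of the Q20 females at 10 months. In replicate 1 of the Q92 males at 10 months it was 24.1%, from 190 Pomc counts against 790 of Prl and Gh. Replicate 4 of the Q50 males at 6 months had 97 Pomc counts beside 0 Prl and 7 Gh counts. Cga ranged from 0.272% to 3.4% of the Prl and Gh sum in the same 9 libraries, with the highest value in the library of 5226 Gh counts.

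**Figure D2:**
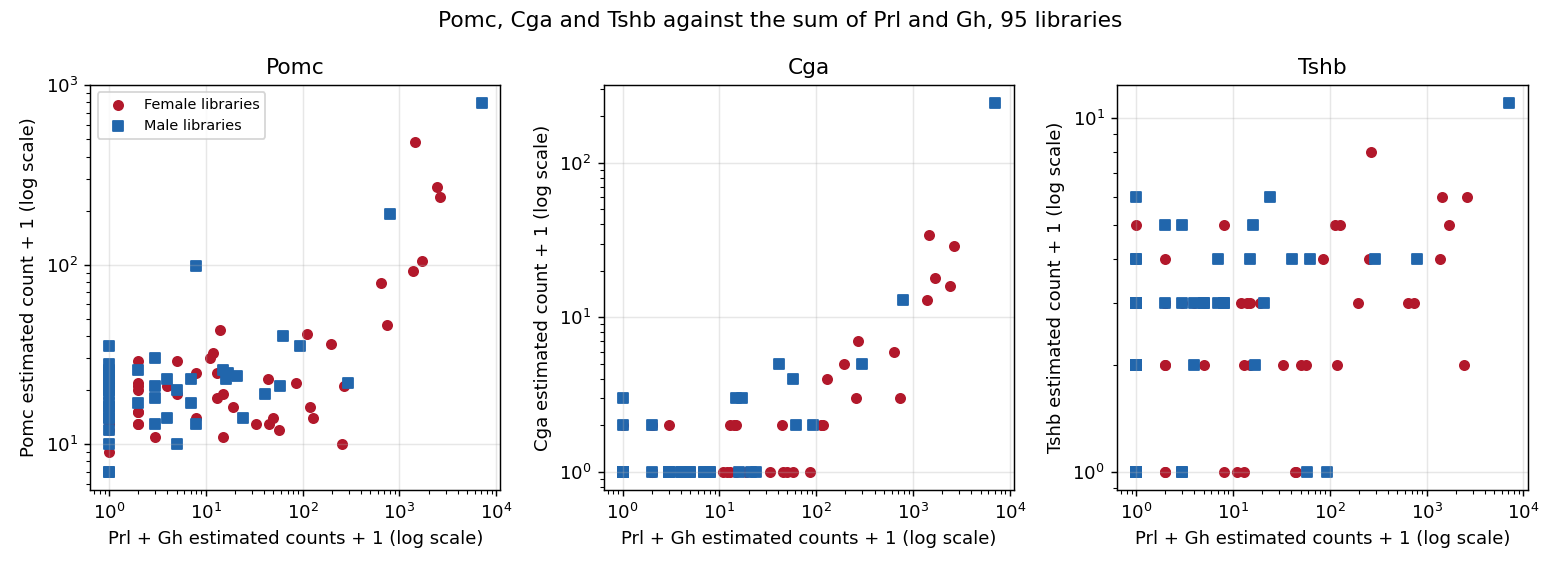
Estimated counts plus 1 of Pomc, Cga and Tshb (vertical, log axis) against the sum of Prl and Gh counts plus 1 (horizontal, log axis) in 95 libraries, with females in red and males in blue. Pomc stays near its median of 20 counts over most of the range, and Tshb does not exceed 10 counts.

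The balance of Prl and Gh differed between the sexes. To keep the ratio readable it was taken in the 28 libraries with at least 20 counts of the 2 genes together, of which 19 were from females and 9 from males. In all 19 female libraries Prl exceeded Gh, and Prl made up 70.4% to 95.5% of the sum with a median of 80.0%. All 9 male libraries had more Gh than Prl, and Prl made up 5.0% to 26.2% with a median of 15.2%. The shares of females and males did not overlap. In the male library with most counts the share was 26.2% (95% Wilson interval 25.2 to 27.2%), and in the female library with most counts 76.0% (74.3 to 77.6%). In the female library closest to the male range, replicate 4 of the Q20 females at 6 months, it was 70.4% (68.2 to 72.5%). These intervals cover counting error only.

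At 6 months the mean log2 ratio of Prl to Gh was 1.71 ± 0.35 (SD, n = 8) in females and -2.63 ± 1.1 (SD, n = 3) in males. The difference of 4.34 had an exact permutation p of 0.012 (two-sided), and all 8 females lay above all 3 males. At 10 months the ratio was 2.44 ± 0.79 (SD, n = 11) in females and -2.41 ± 0.6 (SD, n = 6) in males. That difference of 4.85 had an exact permutation p of 0.00016, with no overlap of the 11 females and 6 males. Wild-type libraries were few in this set, with 4 females at 76.8% to 90.6% Prl and 1 male at 5.0%. The 15 knock-in females ranged from 70.4% to 95.5% and the 8 knock-in males from 8.2% to 26.2%. Among the 67 libraries with any count of either gene, Prl was higher in 40 of 41 female libraries and equal to Gh in 1, and Gh was higher in 19 of 26 male libraries, equal in 2 and lower in 5.

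**Figure D3:**
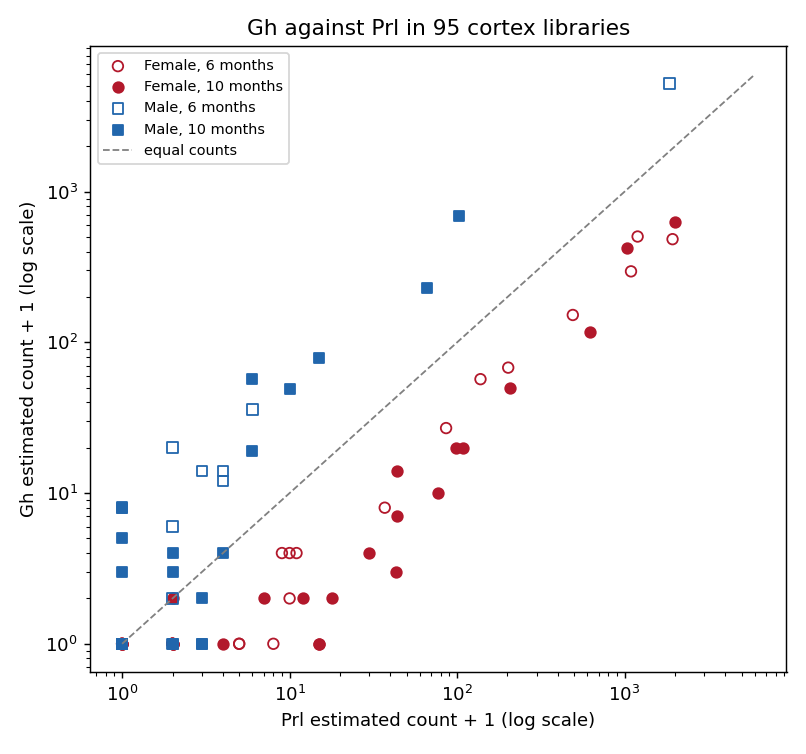
Estimated Gh count plus 1 against estimated Prl count plus 1 (both log axes) in 95 libraries, with females as red circles, males as blue squares, open symbols at 6 months and filled ones at 10 months, and a dashed line of equal counts. Of the libraries with at least 20 counts of both genes together, all 19 from females lie below the line and all 9 from males above it.

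The level of Prl was also compared between the sexes. At 10 months Prl counts ranged from 0 to 1996 with a median of 15.5 in the 24 female libraries, and from 0 to 101 with a median of 1 in the 23 male libraries. The ranges overlapped widely, since 3 females had no Prl count. Prl was 4.32 ± 0.65 (log2, SE) higher in females with the line groups held constant (edgeR adjusted p = 2.4e-05), and it was the sole hormone gene called of 4 tested, where 3.49% of the 17813 genes were called. Gh differed by 0.24 ± 0.61 (edgeR adjusted p = 0.88), Pomc by 0.84 ± 0.48 (adjusted p = 0.37), and Cga by 1.64 ± 0.78 (adjusted p = 0.25). In these bulk libraries a difference in the number of cells of a type and a difference in RNA per cell cannot be told apart.

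At 6 months the median Prl count was 7.5 (0 to 1934) in 24 females and 0 (0 to 1856) in 24 males. None of the 3 hormone genes tested was called between the sexes at that age by edgeR, where 2.37% of 17716 genes were, while 1 had an unadjusted p under 0.05, and DESeq2 and limma voom each called 1. Prl was 2.12 ± 0.71 higher in females (adjusted p = 0.1). Without replicate 2 of the Q50 males, the library of 5226 Gh counts, the Prl difference was 7.76 (edgeR adjusted p = 2.7e-05). In wild types alone Prl fell below the filter on low counts at both ages, so that no sex difference of Prl was tested there. Choroid plexus markers moved with sex at 6 months, with 8 of 10 lower in females and a median log2 difference of -1.41. Their summed level was 16.9 to 1210 CPM in females (median 29.7) and 22.5 to 2710 CPM in males (median 613), and at 10 months 13.4 to 1310 CPM (median 53.6) and 31.2 to 1660 CPM (median 461), with 0 of 10 called by edgeR at 10 months. Their part in the Prl difference was not tested.

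At 10 months Prl and Gh were higher in Q92 cortex than in wild types. Prl counts of the 4 Q92 females were 618, 14, 76 and 1996, and of the 4 Q92 males 101, 0, 14 and 5. The wild-type females had 1, 1, 0 and 0 Prl counts when caged with Q20 mice and 29, 14, 43 and 3 when caged with Q50 mice. Wild-type males had 0, 1, 0 and 0 counts in the first cages and 0, 1, 2 and 3 in the second. In all, 3 of the 4 Q92 females were above all 8 wild-type females, and 3 of the 4 Q92 males above all 8 wild-type males. Prl was 7.18 ± 0.96 (log2, SE) higher in Q92 (edgeR adjusted p = 1e-05), with 0.853% of 17813 genes called in this comparison. The reference was the mean of the wild types caged with Q20 and with Q50, which held 3 and 95 Prl counts in all. Between these housings 7.03% of genes were called at this age. Neither group was caged with Q92 or Q140 mice, so line and housing cannot be told apart for these lines at either age.

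Gh showed the same order. Its counts were 116, 0, 9 and 631 in Q92 females and 689, 0, 78 and 56 in Q92 males. In the 16 wild types Gh counts ranged from 0 to 13, with a sum of 1 over the 8 libraries of mice caged with Q20 and of 23 over the 8 of mice caged with Q50. Gh was 7.88 ± 1.25 higher in Q92 (edgeR adjusted p = 0.00025). Pomc was 2.47 ± 0.67 higher without being called (adjusted p = 0.066), from counts of 45, 18, 21 and 238 in Q92 females and 190, 9, 34 and 39 in Q92 males, against 9 to 20 in all 16 wild types. Cga was 4.53 ± 1.26 higher, also without a call (adjusted p = 0.072). It passed the filter at 10 months with 3 libraries of 10 or more counts, 2 of them Q92 and 1 Q20, so its difference in those lines is partly a result of that filter. Prl and Gh lost their calls under limma voom (adjusted p = 0.098 and 0.16) and in males alone (adjusted p = 0.45 and 0.3). On log2 FPKM with 1 added they were 1.78 and 1.84 higher without a call (limma adjusted p = 0.0816 and 0.0521). Gh also lost its call in females alone (adjusted p = 0.069). Both genes were called by edgeR with any single library left out. Pomc was called by DESeq2 (adjusted p = 0.00301), by edgeR without robust fitting (adjusted p = 0.0421), and without replicate 4 of the Q20 females (adjusted p = 0.000403) or replicate 3 of the Q92 females (adjusted p = 0.0269).

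In the same comparison 5 of 6 olfactory bulb markers were higher in Q92, with a median log2 difference of 1.56, while 0 of 10 striatal, 0 of 10 choroid plexus and 0 of 10 hypothalamic list genes tested were called by edgeR. Of the other anterior and intermediate pituitary genes, 7 of 18 were tested and 1 was called, Chgb, which encodes a secretory granule protein and fell by 0.16 on the log2 scale. The part of the bulb markers in the Prl and Gh differences was not tested.

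Q20 cortex at 10 months had higher Prl than that of wild types caged with Q20 mice. Prl counts were 207, 43, 11 and 1030 in Q20 females and 2, 0, 5 and 0 in Q20 males, against a sum of 3 counts over the 8 wild types. All 4 Q20 females were above every wild-type library of that housing, while 2 of the 4 males had none. Summed over libraries and scaled to depth, the ratio was 439 (95% exact counting interval 150 to 2130), which covers counting error only. Prl was 8.28 ± 1.79 higher (edgeR adjusted p = 0.012), with 4.35% of genes called. Gh was 7.97 ± 2.61 higher without a call (adjusted p = 0.062), from 504 counts in Q20 against 1 in wild types. DESeq2 called Gh (adjusted p = 0.000398), as did edgeR without replicate 3 of the Q20 females, replicate 4 of the Q50 males, replicate 4 of the Q92 females or replicate 1 of the Q92 males (adjusted p = 0.0417 to 0.0499). Pomc at 2.2 ± 0.82 (adjusted p = 0.11) and Cga at 4.19 ± 1.66 (adjusted p = 0.13) were not called either.

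The Q20 call of Prl depended on the model. The adjusted p was 0.0955 under limma voom, and 0.0631 and 0.174 by limma on log2 FPKM with 0.1 or 1 added. It was 0.0764 by edgeR when the L code (part of each sample name) was added to the model. The 9 libraries whose names hold no D code shared 1 level there, though their L codes differ. In females alone the adjusted p was 1.0 and in males alone 0.759. The Q20 call also rested on the housing, as wild types caged with Q50 mice had 95 Prl counts in 8 libraries. In the same comparison 6 of 6 forebrain cholinergic neuron markers tested were higher in Q20, with a median log2 difference of 3.55. Of the striatal projection neuron markers 10 of 10 were higher, with a median of 1.33. Median sums of the cholinergic markers were 16.6 CPM in Q20, and 1.79 and 13.3 CPM in wild types caged with Q20 and Q50. Those of the striatal markers were 596 CPM in Q20, and 279 and 540 CPM in the same wild types. The part of both lists in the Prl difference was not tested.

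In Q50 mice at 10 months edgeR called none of the 4 hormone genes, where 0.0561% of all genes were called. The count with an unadjusted p under 0.05 was 1, and DESeq2 and limma voom called 0. Prl was 1.8 ± 1.26 higher (adjusted p = 1.0) and Gh 3.78 ± 1.8 higher (adjusted p = 1.0) than in wild types caged with Q50 mice. Median Prl counts were nonetheless 25.5 in Q50 and 3 in those wild types, and the libraries overlapped. In Q140 mice of that age, where 1.20% of genes were called, edgeR, DESeq2 and limma voom called 0 of 4 hormone genes, and 0 had an unadjusted p under 0.05. Prl differed by 0.05 ± 0.96 in Q140, with 0 to 17 counts and a median of 0.

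Wild types of the 2 housings were compared at each age. At 10 months edgeR called 0 of 4 hormone genes, with 0 at an unadjusted p under 0.05, 1 call by DESeq2 and 0 by limma voom. Of all genes 7.03% were called. Among them the cholinergic marker Lhx8 differed by -6.28 ± 1.39 (edgeR adjusted p = 0.0047) and the striatal marker Adora2a by -2.23 ± 0.47 (adjusted p = 0.0038). Both were lower in the mice caged with Q20. Prl was 4.59 ± 3.36 lower in the mice caged with Q20 (adjusted p = 0.44), at 3 counts in all against 95. At 6 months 0 of 3 were called by edgeR, 1 had an unadjusted p under 0.05, and DESeq2 and limma voom called 0, with 0.0903% of genes called. The Prl difference of -5.15 ± 1.59 (adjusted p = 0.22) reversed to 0.4 without replicate 2 of the females caged with Q50 mice, which had 1934 of the 1962 Prl counts in its housing group. The wild-type groups serve as reference for several lines, so the line comparisons share control libraries.

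At 6 months no line differed from wild type in a hormone gene by edgeR. Prl counts were 85, 1, 490 and 1196 in Q20 females and 5, 0, 0 and 1 in Q20 males. Wild types caged with Q20 mice had 8, 1, 36 and 0 counts in females and 0, 0, 2 and 0 in males. Of the 4 Q20 females, 3 exceeded all 8 of those wild types, yet the difference of 5.05 ± 1.61 had an adjusted p of 1.0, with 0.0169% of genes called and 2 hormone genes at an unadjusted p under 0.05. With the L code in the model the difference was 10.44 and was called (adjusted p = 0.0051).

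Q50 females of 6 months had 9, 137, 201 and 1092 Prl counts and 1, 56, 67 and 295 Gh counts. The Gh difference from wild types caged with Q50 mice was 3.1 ± 1.02 (edgeR adjusted p = 0.8), with 0.0226% of genes called and 2 hormone genes at an unadjusted p under 0.05. It reversed to -0.4 without replicate 2 of the Q50 males, whose 5226 counts were most of the 5652 Gh counts in Q50 mice of that age.

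Q92 and Q140 mice of 6 months had almost no counts. Over 8 libraries each, Prl counts summed to 15 in Q92 and 5 in Q140, and Gh counts to 3 and 1. The highest Prl count was 10 in Q92 and 4 in Q140, both in females. Against the 16 wild types, whose Prl counts were 0 to 1934, Prl differed by -4.17 ± 3.21 in Q92 (edgeR adjusted p = 0.53) and by -5.51 ± 3.92 in Q140 (adjusted p = 0.58). The shares of genes called were 7.83% and 3.52%, and 0 of 3 hormone genes had an unadjusted p under 0.05 in either line, while DESeq2 called 1 in Q92 and 2 in Q140.

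Counted by libraries with at least 20 Prl and Gh counts together, the 6-month groups had 4 of 8 in Q20, 4 of 8 in Q50, 0 of 8 in Q92, 0 of 8 in Q140, 1 of 8 in wild types caged with Q20 and 2 of 8 in wild types caged with Q50. At 10 months these were 4 of 8 in Q20, 5 of 8 in Q50, 6 of 8 in Q92, 0 of 7 in Q140, 0 of 8 in wild types caged with Q20 and 2 of 8 in wild types caged with Q50. None of the 15 Q140 libraries reached 20 counts. In all, 23 of 63 knock-in and 5 of 32 wild-type libraries did. Such libraries occurred under each L code from L1 to L8 that a D code follows, from 1 of 11 to 7 of 12 libraries. The 9 libraries whose names hold no D code were kept as 1 level, though their L codes differ, and 2 of these 9 reached 20 counts. These tallies by L code pool both ages, although the same L codes recur at each age under sample names of separate number ranges. The labels do not say what the L code stands for.

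Ordered by mean Prl level at 10 months, Q92 was at 10.7 ± 21.03 CPM (SD, n = 8), Q20 at 4.82 ± 10.5 CPM (n = 8), Q50 at 1.18 ± 1.26 CPM (n = 8), wild types caged with Q50 at 0.349 ± 0.471 CPM (n = 8), Q140 at 0.086 ± 0.202 CPM (n = 7) and wild types caged with Q20 at 0.0111 ± 0.0153 CPM (n = 8). The 6-month order was Q50 at 10.97 ± 18.2 CPM, wild types caged with Q50 at 7.07 ± 19.7 CPM, Q20 at 6.83 ± 13.6 CPM, wild types caged with Q20 at 0.172 ± 0.369 CPM, Q92 at 0.0538 ± 0.0941 CPM and Q140 at 0.0184 ± 0.0426 CPM, with n = 8 in each. Neighbours in both orders lay within an SD of each other, and the SD exceeded the mean in every group. The 6-month order rested on single libraries. Without replicate 2 of the females caged with Q50 mice, at 55.7 CPM, the mean of that wild-type group was 0.12 ± 0.0903 CPM (SD, n = 7), below wild types caged with Q20. Without replicate 2 of the Q50 males, at 50.1 CPM, the mean of Q50 was 5.38 ± 9.82 CPM (n = 7), below Q20.

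A trend with CAG length over the knock-in lines was not called for a hormone gene. At 6 months Prl changed by -4.76 ± 1.38 per 100 repeats (edgeR adjusted p = 0.074) and Gh by -5.14 ± 1.67 (adjusted p = 0.13), where 1.78% of 17504 genes were called. All 3 hormone genes had an unadjusted p under 0.05, and DESeq2 called 2 and limma voom 0. Without replicate 2 of the Q50 males the trends were -6.03 for Prl (adjusted p = 0.0012) and -5.97 for Gh (adjusted p = 0.0003). At 10 months Prl changed by -0.59 ± 1.06 per 100 repeats (adjusted p = 0.87), with 0 of 4 hormone genes at an unadjusted p under 0.05, 0 called by DESeq2 and limma voom, and 0.891% of 17620 genes called. The high libraries of Q92 mice at 10 months, between the Q50 and Q140 lines in repeat length, did not follow a monotonic order.

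Between 10 and 6 months, averaged over lines and sexes, edgeR called 0 of 4 hormone genes although 49.1% of 18187 genes were called. None had an unadjusted p under 0.05, and DESeq2 and limma voom each called 1. Prl differed by -1.29 ± 2.17 (adjusted p = 0.66) and Pomc by -0.65 ± 0.39 (adjusted p = 0.16). Sample names begin with numbers of separate ranges at 6 and at 10 months, and the labels do not say what these numbers stand for. Age and whatever sets these ranges apart cannot be told apart, for the hormone genes or for the share of all genes called. The age effect in Q92 mice relative to wild types was called for Prl at 11.36 ± 3.63 (edgeR adjusted p = 0.031) and for Pomc at 3.18 ± 1.04 (adjusted p = 0.036), with 9.63% of genes called. Gh at 12.75 ± 5.89 (adjusted p = 0.17) and Cga at 6.37 ± 3.37 (adjusted p = 0.25) were not called by edgeR. For Gh the term was called by DESeq2 (adjusted p = 4.99e-07), by limma on log2 FPKM with 0.1 or 1 added (adjusted p = 0.00794 and 0.0376), and by edgeR without replicate 2 of the Q50 males at 6 months (adjusted p = 0.0423). Prl counts in Q92 females went from 1, 10, 1 and 1 at 6 months to 618, 14, 76 and 1996 at 10 months, and the ages did not overlap. In Q92 males they were 2, 0, 0 and 0 at 6 months and 101, 0, 14 and 5 at 10 months, with overlap at 0.

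The 2 calls of that interaction rested on few libraries. Without replicate 2 of the wild-type females caged with Q50 mice at 6 months, the Prl term was 8.58 (edgeR adjusted p = 0.13) and the Pomc term 2.58 (adjusted p = 0.094). Without replicate 4 of the Q92 females at 10 months they were 10.05 (adjusted p = 0.062) and 2.69 (adjusted p = 0.12). The Prl call was also lost without replicate 3 of the wild-type females caged with Q20 mice at 6 months (adjusted p = 0.32). The Pomc call was lost without replicate 3 of the Q92 males at 6 months (adjusted p = 0.0504) or replicate 1 of those at 10 months (adjusted p = 0.082). In the other lines the interaction called 0 of 4 hormone genes by edgeR, DESeq2 and limma voom, with 0 at an unadjusted p under 0.05, and the shares of genes called were 0.693% for Q20, 0% for Q50 and 1.79% for Q140. Marker lists of other regions moved with the Q92 interaction, a term that also rises where Q92 was below wild type at 6 months. Called higher were 9 of 10 striatal, 6 of 6 cholinergic and 5 of 6 olfactory bulb markers, while 7 of 9 cortical neuron markers were called lower. The hypothalamic list genes Gal (4.48 ± 1.24), Trh (3.04 ± 0.64) and Cartpt (0.7 ± 0.21) were also called higher. So were meningeal fibroblast markers, among them Slc22a6 (0.93 ± 0.24) and Aldh1a2 (0.74 ± 0.23). At 6 months Q92 was called lower than wild type by edgeR for Penk (-1.69 ± 0.17), Lhx8 (-5.03 ± 0.65) and Eomes (-4.85 ± 1.28). Gal (-3.86 ± 0.78), Trh (-2.09 ± 0.4) and Cartpt (-0.75 ± 0.14) were called lower there too. At 10 months no striatal or hypothalamic list gene was called in Q92, while Eomes was called higher (3.62 ± 0.73). The part of all these lists in the hormone differences was not tested.

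**Figure D4:**
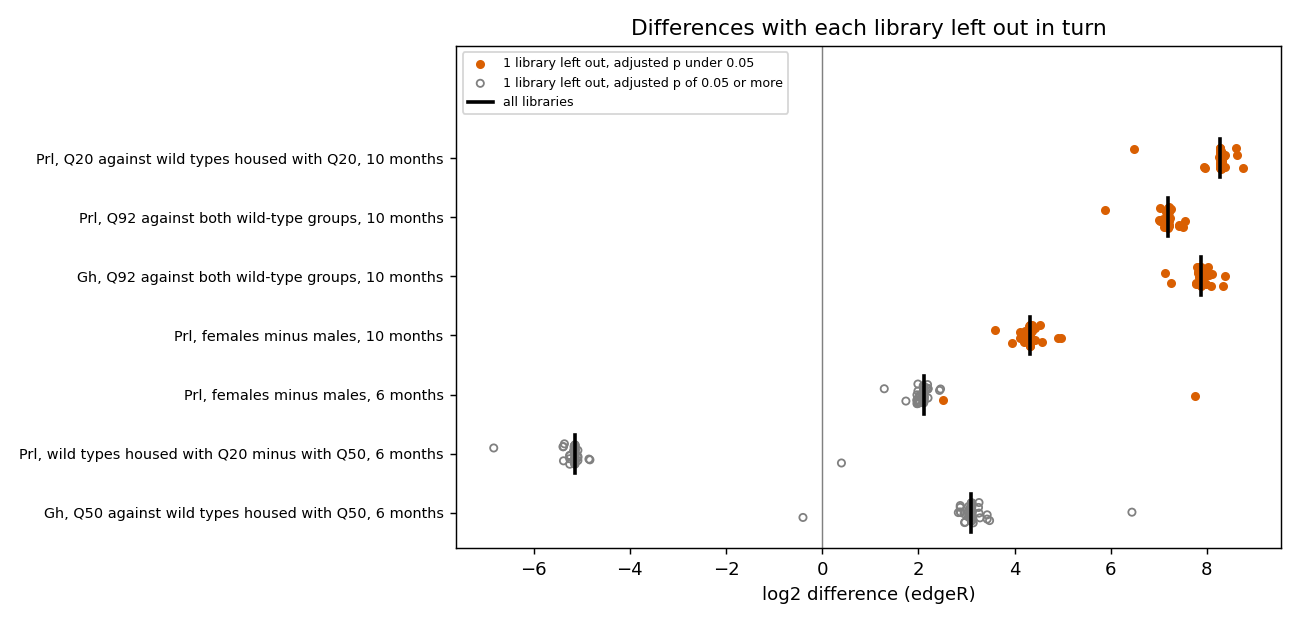
Log2 differences from edgeR (horizontal) for 7 comparisons named at the left, with all libraries as a black line and with each library left out in turn as points, orange where the adjusted p was under 0.05. The 10-month differences stay called throughout, whereas the 6-month Prl difference between sexes reaches 7.76 and the 6-month Prl difference between housings reaches 0.4 without a given library.

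Genes that receive, process or respond to these hormones were read in the same comparisons, in which 0.853% (Q92) and 4.35% (Q20) of all genes were called. In Q92 mice at 10 months, 0 of 7 receptor genes tested were called by edgeR and their median log2 difference was 0.29, against 0.001 over all genes. Of 8 growth hormone and prolactin target genes tested, 1 was called, Igfbp3, an insulin-like growth factor binding protein, at 0.27 ± 0.07 (adjusted p = 0.042). None of the 6 genes that process the Pomc precursor was called there by edgeR, and their median was -0.02. Of 8 thyroid hormone response genes, 0 were called by edgeR, with a median of -0.04.

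In Q20 mice at 10 months the receptor genes Mc3r, a melanocortin receptor, at 1.89 ± 0.46 (edgeR adjusted p = 0.021) and Ghr, the growth hormone receptor, at 0.22 ± 0.07 (adjusted p = 0.046) were called, 2 of 7 tested. Scg5, a chaperone of prohormone convertase, was the sole called gene of the 6 that process Pomc, and fell by 0.18 in log2 terms (adjusted p = 0.013). No target gene of growth hormone or prolactin among 8 tested was called by edgeR in Q20, with a median of -0.01. Between the sexes at 10 months 0 of 7 receptor genes and 0 of 8 target genes were called by edgeR, while Furin, a proprotein convertase, fell by 0.14 in females (adjusted p = 0.026). Genes of hypothalamic hormones and peptides, with 10 of 14 tested, gave 0 calls by edgeR in Q92 and Q20 mice at 10 months, with medians of -0.04 and 0.48.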

How the data were processed

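Messenger RNA of cortex was measured in 95 libraries. The authors deposited estimated counts per gene and FPKM (length- and depth-scaled). Per the submitters' processing notes, CASAVA 1.8.2 was used, in a role not stated. Aligner, counter, build, annotation and strand use were not given in the sources used. Of nonzero deposited estimated counts 67% were whole. Counts were rounded and fitted with edgeR 4.0.16 in R 4.3.3: filterByExpr (minimum count 10, total 15, groups of line and sex), TMM, and the robust quasi-likelihood test, with all libraries of an age in a fit that includes sex. Prl, Gh and Pomc passed the filter at both ages, Cga at 10 months and when both ages were fitted together, and Tshb in none. Q20 and Q50 were compared with wild types of their own housing, Q92 and Q140 with the mean of both. The SE of an edgeR difference is approximate, as it was derived from the test. It is the absolute difference divided by the square root of the F statistic. The log2 CPM used a prior count of 0.5, as did the ratio of Prl to Gh, whose permutation tests were two-sided (SciPy 1.17.1, 100000 resamples for correlations, where 1e-05 is the smallest p they give). Alternatives were DESeq2 1.42.0, limma 3.58.1 on counts (voom) or on log2 of deposited FPKM plus 0.1 or plus 1 (mean FPKM of at least 0.5), other filters, the L code, the replicate number, subsets and each library left out. Scripts were tested on simulated data. All 6 members are named, other listed genes where called (up to 4 per list and comparison), and the 8 most similar genes of Prl, Gh and Pomc. The members and lists were chosen with earlier results of these data known.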

Additional observations from a re-analysis of the deposited data

Results flagged for a closer look

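Differences of the Q92 line from wild type that themselves differed between 10 and 6 months by the test of the interaction (edgeR) were those of Prl, at 11.36 on the log2 scale, and of Pomc, at 3.18. Both had higher counts at 10 months in Q92, and the libraries on which these calls rest are named above.

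A library also stood apart from the other 3 of its group of line, age and sex, with a gap to its nearest neighbour above Dixon's 95% critical value on log2 CPM, in 20 of 82 sets checked (a gene in a group, or the ratio of Prl to Gh in a sex and age), where chance flags about 1 in 20. Many of these sets hold counts near 0, where 1 count separates a library from the rest. Highest in their groups with large counts were Prl in replicate 2 of the Q50 males at 6 months (1856 counts), Prl in replicate 2 of the wild-type females caged with Q50 mice at 6 months (1934 counts), Pomc in the same wild-type library (271 counts), and Pomc in replicate 4 of the Q20 females at 10 months (482 counts).

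Low counts that were still highest in their groups were Gh with 13 counts in replicate 3 of the 6-month wild-type males caged with Q20 mice, whose Prl of 2 counts also stood out, and Prl with 10 and Gh with 3 counts in replicate 2 of the 6-month Q92 females. Prl stood out with 4 counts in replicate 2 of the 6-month Q140 females, with 2 counts in replicate 1 of the 6-month Q92 males and with 1 count in replicate 2 of the 10-month wild-type males caged with Q20 mice. Both Prl and Gh stood out with 1 count in replicate 2 of the 6-month Q140 males. Gh with 1 count stood out in replicate 2 of the 10-month Q140 females and, with Cga at 1 count, in replicate 2 of the 10-month wild-type females caged with Q20 mice. Cga with 1 count stood out in replicate 2 of the 10-month wild-type females caged with Q50 mice. Lowest in their groups were Gh with 0 counts in replicate 2 of the 6-month wild-type males caged with Q50 mice, Pomc with 6 counts in replicate 2 of the 10-month Q20 males and Pomc with 11 counts in replicate 4 of the 6-month wild-type males caged with Q20 mice.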

How the results depend on the processing

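The numbers of hormone gene calls were 3 in the line comparisons, 1 between sexes, 2 in the line by age interaction and 0 for the trend, housing and age. In the line comparisons they became 9 with DESeq2, 0 with limma voom and with log2(FPKM + 1), 1 in females alone and 0 in males alone, and 3 to 5 with a library left out. Between sexes they were 2 with DESeq2, limma voom and the L code, 0 in wild types alone, and 1 to 3 with a library left out. For the interaction they were 0 with limma voom and without a filter, 1 with log2(FPKM + 1), and 0 to 4 with a library left out. For the trend they were 2 with DESeq2, 1 without robust fitting and 0 to 2 with a library left out. For age they were 1 with DESeq2, limma voom and log2(FPKM + 0.1), and 0 to 1 with a library left out. For housing they were 1 with DESeq2 and 0 with any library left out. The cause of these changes was not tested.

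The log2 ratio of Prl to Gh, females minus males, was 3.12 at 6 months with at least 50 counts, where 1 male remained and no test was made, and 3.80 to 4.90 at 6 and 4.66 to 4.99 at 10 months with a library left out. Reversals were the 6-month Gh difference of Q50 (-0.29 in females alone, -0.4 to 6.44 with a library left out), the 6-month Prl difference between housings (-6.83 to 0.4 with a library left out) and the 10-month correlation of Prl and Tshb (-0.06 without the 2 libraries farthest from the median). Same-numbered libraries had correlations across genes of -0.484 to 0.38 with a median of -0.003, and 23 of 94 pairs were over 0.1. Libraries of unlike number were not correlated, so whether the numbers pair the samples was not tested. With the replicate block, calls numbered 6 in the line comparisons, 2 for the trend, 2 between sexes, 2 in the interaction and 0 otherwise. A permutation test of single genes on log2 CPM, added after seeing the data, gave an unadjusted p under 0.05 in 15 of 48 tests. For Prl these included 0.0031 in Q92, 0.011 in Q20 and 0.0056 between the wild-type housings at 10 months, and 0.016 in Q140 at 6 months (exact). Depth limits Tshb, which had too few counts for a test, and Cga, which had too few at 6 months.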
